A study of Pinus pinaster with 6 samples.

Results

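The transcripts described here were the most abundant ones in the roots of water-irrigated maritime pine (Pinus pinaster) seedlings. All 46658 transcripts of the deposited table were ranked by their mean over the water libraries and the first 200 were taken. A fixed list of transcript IDs was then left out, which removed 13 of the 200. This left 187 transcripts, 0.401% of the table. The seedlings were 1 month old and grew in vermiculite. The ammonium group was irrigated with 80 mL of 3 mM NH4Cl and the water group with 80 mL of water, and roots were taken 24 h later. Each group had 3 libraries, called N1, N2 and N3 for ammonium and C1, C2 and C3 for water. The poly(A) RNA was sequenced directly on a nanopore, so that 1 read came from 1 RNA molecule. The values are CPM, the reads of a transcript scaled to a library size, and were not divided by transcript length. Their sum was not the same in every library, at 956946 to 965552 in ammonium and 974640 to 996695 in water libraries. Levels are therefore relative amounts of reads, and near-identical forms may each have counted the same read. In bulk root RNA, fewer cells of a type and less RNA per cell cannot be told apart.

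A small part of the genes of a plant organ gives a large part of its mRNA. In roots such transcripts commonly encode the translation machinery, the cytoskeleton, water channels of the plasma membrane and vacuole, enzymes that remove reactive oxygen, small metal-binding proteins and secreted proteins with antimicrobial activity. Ammonium, once taken up by root cells, is assimilated by glutamine synthetase, which joins it to glutamate. The transcripts of general cell functions are often used as references in expression studies, so their spread between libraries and between treatments bears on that use.

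Sequence in the sources used here was limited to 1 of the 187 transcripts, elongation factor 1-alpha (pp_67823), which carries amino-acyl tRNAs to the ribosome and is a common reference gene. A pair of designed oligonucleotides anneals to it in an assay of single modified bases that uses both elongation and ligation. The transcript-matching stretch of each is shown, 5′ to 3′, because no other sequence of the 187 transcripts was at hand. Capitals mark the 20 bases that pair with the transcript, and the tails used for amplification are left out. The genome position of this transcript is not given in the sources used here.
up probe: CTTCCTTCGACGACTCTACT
down probe: GTTCTCCAGTAAGTTCATAC
The transcript these probes target had 1288, 1345 and 1379 CPM in N1, N2 and N3, against 1317, 1340.3 and 1176 CPM in C1, C2 and C3. The groups overlapped, with C3 the lowest library. Its log2 fold change of ammonium over water was 0.07 (SE 0.09).

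The reads recovered from the CPM values numbered from 1270378 in C1 to 5416076 in N3, and the lowest count behind any value of these transcripts was 375 reads, in C1. Counting error alone is then at most 5.16% of a value. Along the first principal component (36.5% of the variance of all transcripts) C1 stood apart, and along the second (22.3%) N1 did. Among the 187 transcripts C3 held the highest value of the 6 libraries for 54 and the lowest for 53, and N1 held the lowest for 61. Transcripts of photosynthesis, which mark shoot tissue, summed over 10 transcripts to 486 to 651 CPM in ammonium and 586 to 775 CPM in water libraries, and none of them was among the 187. The root ammonium transporter AMT1.3 (pp_203543), one of the genes the study used to check each experiment, had 38.0 to 48.7 CPM in ammonium and 23.8 to 43.7 CPM in water libraries. The 49 transcripts of fermentation enzymes (alcohol dehydrogenase and pyruvate decarboxylase) summed to 2225 to 2378 CPM in ammonium and 2573 to 2864 CPM in water libraries, with 39 of 49 lower in ammonium by fold change (50.1% of all transcripts had a lower mean) and 3 passing an adjusted p of 0.05 in limma (0.0386% of all transcripts). Their part in the results below was not tested.

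Together the 187 transcripts held 14.9, 15.1 and 15.2% of the summed CPM in N1, N2 and N3, against 15.6, 15.8 and 16.1% in C1, C2 and C3. All ammonium libraries lay below all water libraries, but the water values chose the transcripts, so this share is a description. When each library instead supplied its own 200 highest transcripts, the share was 16.2, 16.4 and 16.5% in ammonium against 17.2, 17.5 and 17.7% in water libraries, also without overlap. That count includes the transcripts left out by ID, whose share was 1.16 to 1.26% in ammonium and 1.50 to 1.56% in water libraries. With 3 libraries against 3, an exact two-sided permutation test cannot give a p below 0.1. The 10 highest of the 187 held 2.44 to 2.59% in ammonium and 2.53 to 3.32% in water libraries, the top of the range being C3.

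**Figure D1:**
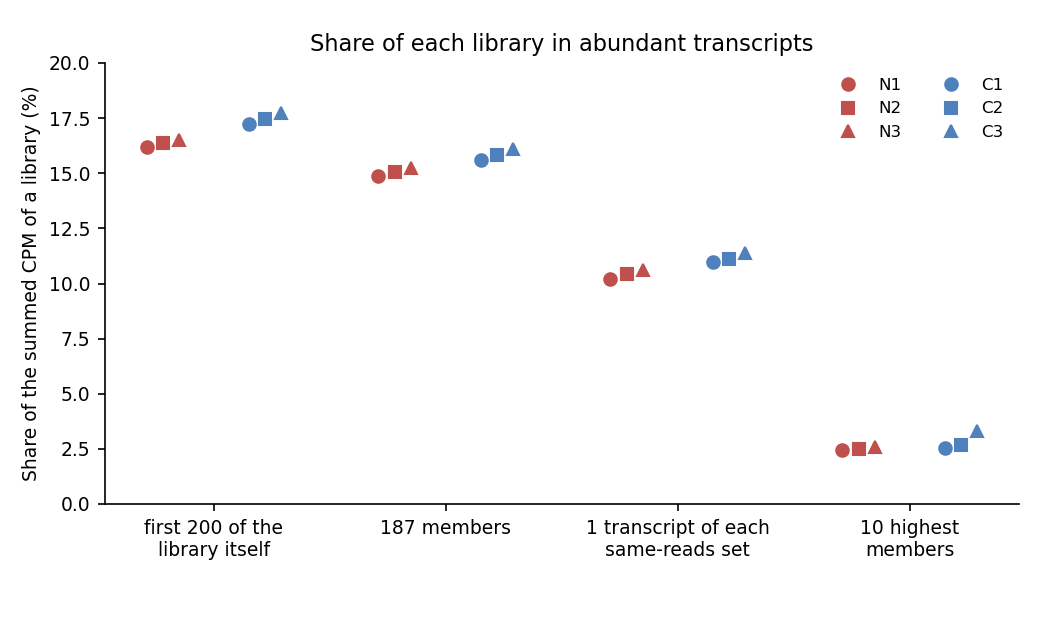
Share of the summed CPM of a library (y axis, %) held by its own first 200 transcripts, by the 187 abundant transcripts of watered roots, by 1 transcript of each set with the same reads, and by the 10 highest members. Each point is a library, ammonium on the left and water on the right of each category, and the 187 transcripts lie between 14.9 and 15.2% in ammonium and between 15.6 and 16.1% in water libraries.

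Part of this abundance may be the same reads counted under several IDs. Transcripts with IDs within 20 of each other and with read counts within 2% in every library were joined into sets, and such transcripts are said below to share their reads. The 187 transcripts then formed 135 sets, of which 30 held 2 to 5 transcripts each and 82 transcripts in all. Counting 1 transcript of each set, the share was 10.2 to 10.6% in ammonium and 11.0 to 11.4% in water libraries. The transcripts also lay close together in ID, with 156 of 187 in runs whose neighbours were at most 3 IDs apart, the longest run holding 11.

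The levels ranged from 246 to 3472 CPM (median 656) over ammonium means and from 389 to 3951 CPM (median 662) over water means, beside medians of 6.90 and 6.93 CPM over all transcripts. At the rank limit, the 5 lowest transcripts taken had water means of 389 to 393 CPM, among them papain family cysteine protease (pp_210565), peptidyl-prolyl cis-trans isomerase (pp_99710) and tubulin alpha chain (pp_66210). The 5 transcripts next in rank had 382 to 389 CPM and included another ID beside the tubulin (pp_66211) and 2 forms of phospho-2-dehydro-3-deoxyheptonate aldolase (pp_131109 and pp_131103), the entry enzyme of the shikimate pathway.

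The annotation tables of the study named 104 of the 187 transcripts, 79 by a protein description, 24 by an Arabidopsis match only and 1 by another table of the study. The other 83 carried no informative name. Of these, 24 shared their reads with a named transcript and 48 had a named one of the 187 within 3 IDs. The unnamed transcripts held 42.0% of the summed CPM of the 187 in ammonium and 41.0% in water libraries. Sorted by name into 17 gene classes, the named transcripts fell into 16 of them, except 2 (pp_153039 and pp_66254) that fell into none. Secreted, storage and defense proteins were the largest class with 24 transcripts and 17.9% of the CPM in ammonium and 19.0% in water libraries. The 10 RNA-binding proteins held 5.51% in ammonium and 6.81% in water libraries, and the 7 transcripts classed as translation factors held 7.01% in ammonium and 6.48% in water libraries. Of these 7, 3 were forms of the translationally-controlled tumor protein, placed there by name only. These 3 forms held 3.70% in ammonium and 3.51% in water libraries. The 10 redox and metal-binding proteins held 4.83% in ammonium and 4.45% in water libraries, and the 9 aquaporins and carriers held 4.71% in ammonium and 4.32% in water libraries. No histone was among the 187. The class of ribosomal proteins held 1 transcript, pp_225253, which the description calls a putative elongation factor and the Arabidopsis match an EF1B subunit. The highest of the 119 named 60S or 40S ribosomal proteins in the table was at rank 265, with 322 CPM in ammonium and 331 CPM in water libraries.

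Stability under ammonium was described in 3 ways, by rank, by fold change and by replicate spread. By the ammonium mean, 179 of the 187 were again among the first 200, and 152 were among the 200 highest of all 6 libraries taken singly. The Spearman correlation of their levels between an ammonium and a water library ran from 0.82 to 0.94 and within a group from 0.83 to 0.98 (across transcripts that share libraries, as a description). Of the 8 that left the first 200, the 4 unnamed forms pp_130642, pp_130644, pp_130646 and pp_130647 went furthest, to ranks 349, 344, 398 and 343. The others were both forms of a zinc finger A20 and AN1 stress-associated protein (pp_203256 and pp_203258), a cupin (pp_217049) and the peptidyl-prolyl isomerase (pp_99710), all at ranks 208 to 213. Of the transcripts that entered in their place, the highest had 446 CPM in ammonium libraries. They included metallothionein pp_108999 and 2 forms of nucleoside diphosphate kinase 1 (pp_146610 and pp_146611).

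The ratio of the ammonium mean to the water mean ran from 0.632 to 1.29 with a median of 0.961. It lay within 1.25-fold for 151 of 187 transcripts (80.7%), against 67.4% of all transcripts, and within 1.1-fold for 98. Most transcripts of the table had far lower levels and so more counting error in their ratios. The ratio was over 1.25 for 3 of the 187 transcripts (16% of all transcripts) and under 0.8 for 33 (16.6%). The ammonium mean was higher for 80 (49.9% of all transcripts) and lower for 107 (50.1%). In limma on log2(CPM + 1), 0 of the 187 passed an adjusted p of 0.05 (0.0386% of all transcripts did), and the smallest adjusted p among them was 0.0924. At an unadjusted p under 0.05, 10 were higher and 44 lower in ammonium (all transcripts 4.1% higher and 4.58% lower). Other tools, run on the recovered reads, called few. edgeR's quasi-likelihood test and DESeq2 each called 1 lower (0.182% of all transcripts in edgeR, 0.122% in DESeq2), and edgeR's exact test called 4 lower (0.559%). All ammonium libraries lay above all water libraries for 17 of the 187 (9.09%, against 7.16% of all transcripts) and below for 33 (17.6%, against 6.94%). Counting 1 transcript of each same-reads set, 9 of 135 lay above and 28 below. The water libraries both chose these transcripts and entered the contrast, so nothing is read from these counts about the set. Chosen instead by the ammonium mean, 187 transcripts divided into 87 higher and 100 lower, with a median log2 fold change of -0.03 in place of -0.06. Under quantile normalization the median of the 187 changed sign, to 0.05, with 111 higher and 76 lower. That setting gives each rank the same value in every library. It therefore removes part of any shift that the top ranks share, and cannot decide the direction of such a shift.

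**Figure D2:**
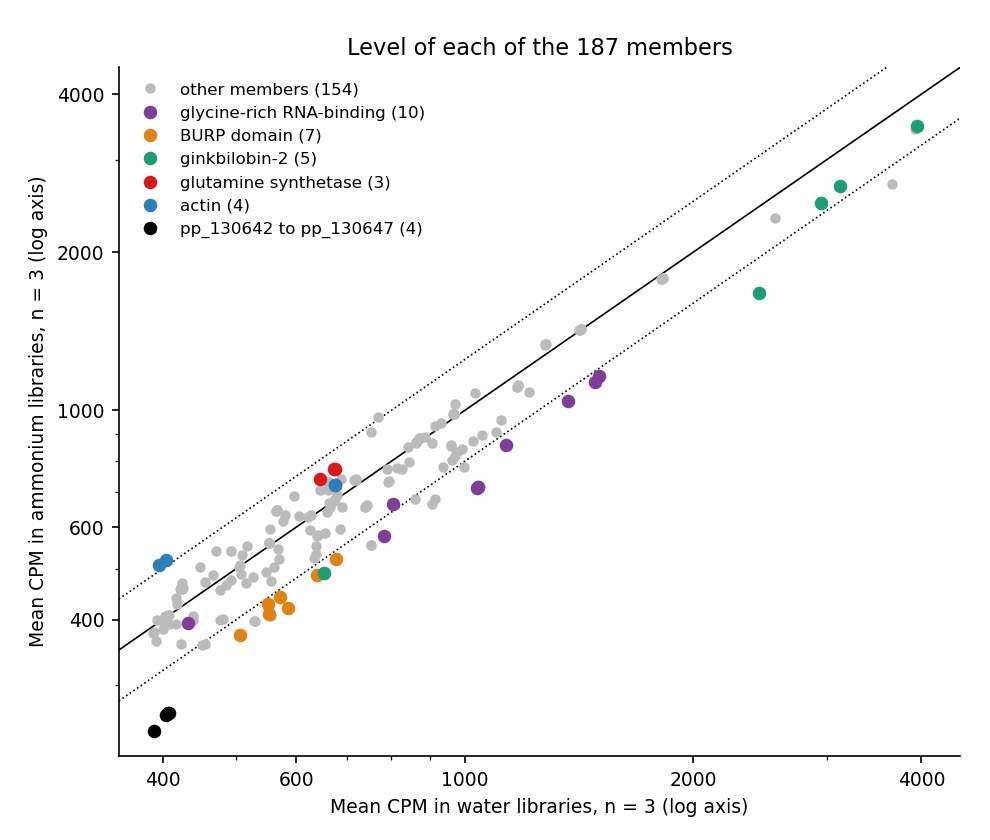
Mean CPM over the 3 ammonium libraries (y axis, log scale) against the mean over the 3 water libraries (x axis, log scale) for each of the 187 transcripts, with the line of equal levels (solid) and lines of a 1.25-fold difference (dotted). Most points, 151 of 187, lie between the dotted lines; glycine-rich RNA-binding and BURP domain transcripts lie mostly on or under the lower one.

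**Figure D3:**
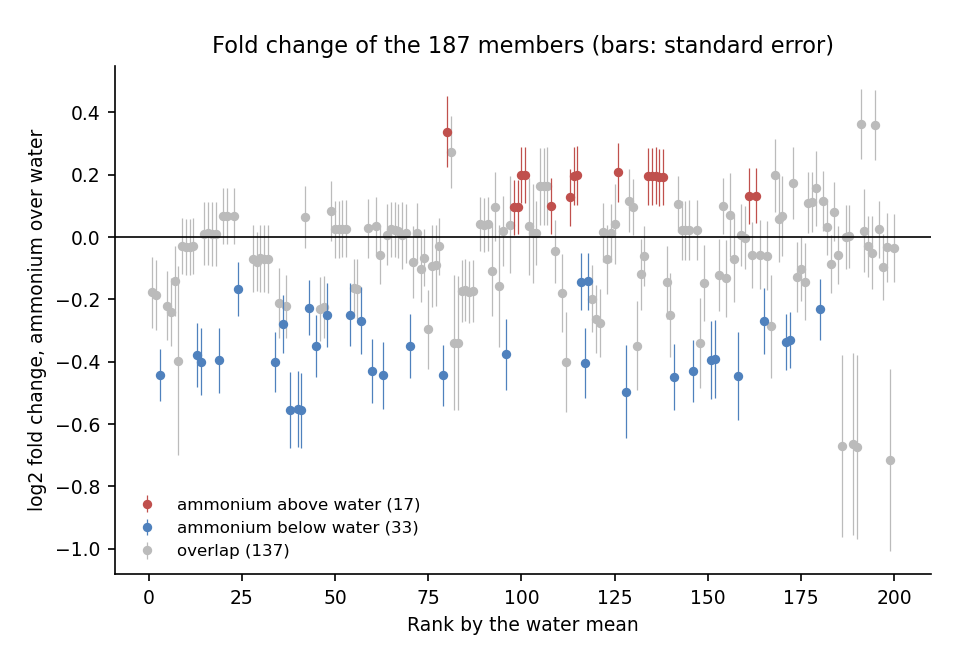
Log2 fold change of ammonium over water (y axis, limma, bars of 1 standard error) against the rank by the water mean (x axis) for the 187 transcripts. Red marks the 17 whose ammonium libraries all lay above the water libraries, blue the 33 whose ammonium libraries all lay below, and grey the 137 that overlapped; the 4 lowest points are pp_130642 to pp_130647.

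The 17 transcripts above water in every ammonium library came from few genes. Those with a name were 3 glutamine synthetases, 2 actins, both actin depolymerizing factors, 1 class I chitinase and 1 metallothionein. The 8 without a name were the 5 IDs pp_207994 to pp_207998, 2 IDs between the glutamine synthetases and 1 beside the metallothionein. Of the 33 below water in every ammonium library, 24 had a name. They were 8 glycine-rich RNA-binding proteins, 5 BURP domain proteins, 2 proline-rich proteins, 2 zinc finger A20 and AN1 proteins, both ADP-ribosylation factors, and 1 transcript each of the disease resistance protein, catalase, S-adenosylmethionine synthase, heat shock protein 70 and a cupin. The 9 without a name included 4 of the IDs from pp_58111 to pp_58121 and 3 from pp_74588 to pp_74593.

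Replicates of the abundant transcripts were closer together than those of most transcripts, which had far lower levels and so more counting error. The part of counting error in this difference was not tested. The coefficient of variation within a group had a median of 8.03% in ammonium and 8.19% in water libraries, beside 17.3% and 20.6% over all transcripts. It was under 10% for 127 transcripts in ammonium and 116 in water libraries. The standard error of the log2 fold change had a median of 0.10, against 0.24 over all transcripts. That error is moderated by eBayes toward a trend over all transcripts, so it is not the replicate spread alone. The smallest water spread was that of heat shock protein 70 (pp_94288), a chaperone of newly made and damaged proteins, which had 340.0, 429 and 433 CPM in ammonium (coefficient of variation 13.1%) against 479.5, 481 and 478 CPM in water libraries (0.336%). All ammonium libraries were below the water libraries, and N1 was the lowest. The water values of pp_94288 rested on 625, 2353 and 2165 reads in C1, C2 and C3. Counting error at such read numbers is larger than 0.336%. This spread was also picked as the lowest of many, so it is not read as steadiness of the transcript. Catalase (pp_209534), which breaks down hydrogen peroxide, had the next smallest water spread (1.13%), also under the counting error of its water values. It had 1146, 1024 and 1081 CPM in ammonium libraries against 1229.8, 1203 and 1211 CPM in water libraries. It too was lower in every ammonium library (log2 fold change -0.17, SE 0.09, adjusted p = 0.617 in limma), but under quantile normalization its fold change was 0.0027, with the sign turned.

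Among the 8 transcripts with a coefficient of variation over 30% in water, C3 was the highest water library for 7. Ginkbilobin-2 form pp_134771 had 1165, 1833 and 2017 CPM in N1, N2 and N3, and 1424, 1609.5 and 4288 CPM in C1, C2 and C3. C3 alone was above all the others, and without it the log2 fold change was 0.10 in place of -0.40. The late embryogenesis abundant protein LEA3-6 (pp_74570), of a family that protects cells during drying, had 513, 577 and 574 CPM in ammonium libraries and 525, 556 and 1179 CPM in water libraries, and its fold change without C3 was 0.04 in place of -0.34. The unnamed pp_74569 shared its reads. The exception was the unnamed pp_189002, for which C3 was the lowest library, with 479, 679 and 628 CPM in ammonium and 775, 844 and 434 CPM in water libraries.

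The most abundant family was named after ginkbilobin-2, an antifungal seed protein of Ginkgo. Form pp_134772, the first in rank, had 3466, 3174 and 3775 CPM in N1, N2 and N3, against 3414, 3759 and 4679 CPM in C1, C2 and C3. The groups overlapped and C3 was the highest library, as it was for forms pp_134774 and pp_134778. The unnamed pp_134776, second in rank, shared the reads of pp_134772. The 5 named forms summed to 10332, 10137 and 11895 CPM in ammonium and 10746, 11726 and 16871 CPM in water libraries, a ratio of means of 0.823. All 5 averaged lower in ammonium (50.1% of all transcripts), with a median log2 fold change of -0.24, which was 0.06 under quantile normalization. Without C1 and N1, the libraries that stood apart (a setting chosen after seeing the data), form pp_252650 passed in limma with a log2 fold change of -0.71 (adjusted p = 0.0173; 0.523% of all transcripts were called lower in that fit), but not with all 6 libraries (-0.40, adjusted p = 0.507). In the same run of IDs the unnamed pp_134779 averaged higher in ammonium, with 1056, 805 and 874 CPM in ammonium and 677, 736 and 848 CPM in water libraries, which overlapped.

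The smallest adjusted p among the 187 was that of a transcript described as a disease resistance protein (pp_199937), at rank 3 in both groups. It had 2647, 2793 and 2638 CPM in N1, N2 and N3, against 3654, 3534 and 3783 CPM in C1, C2 and C3. No ammonium library came near the lowest water library, and the replicates of a group were close to each other. The log2 fold change was -0.44 (SE 0.08, adjusted p = 0.0924 in limma), with adjusted p = 0.0241 in edgeR's quasi-likelihood test, 0.0444 in its exact test and 0.0214 in DESeq2. The fold change of pp_199937 ran from -0.47 to -0.42 over fits without 1 library, but under quantile normalization it was -0.12. Its Arabidopsis match is named a cotton fiber protein, so the role of this transcript is not settled by the tables. The neighbouring ID pp_199936, with the same name, was among those left out by the rule.

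**Figure D4:**
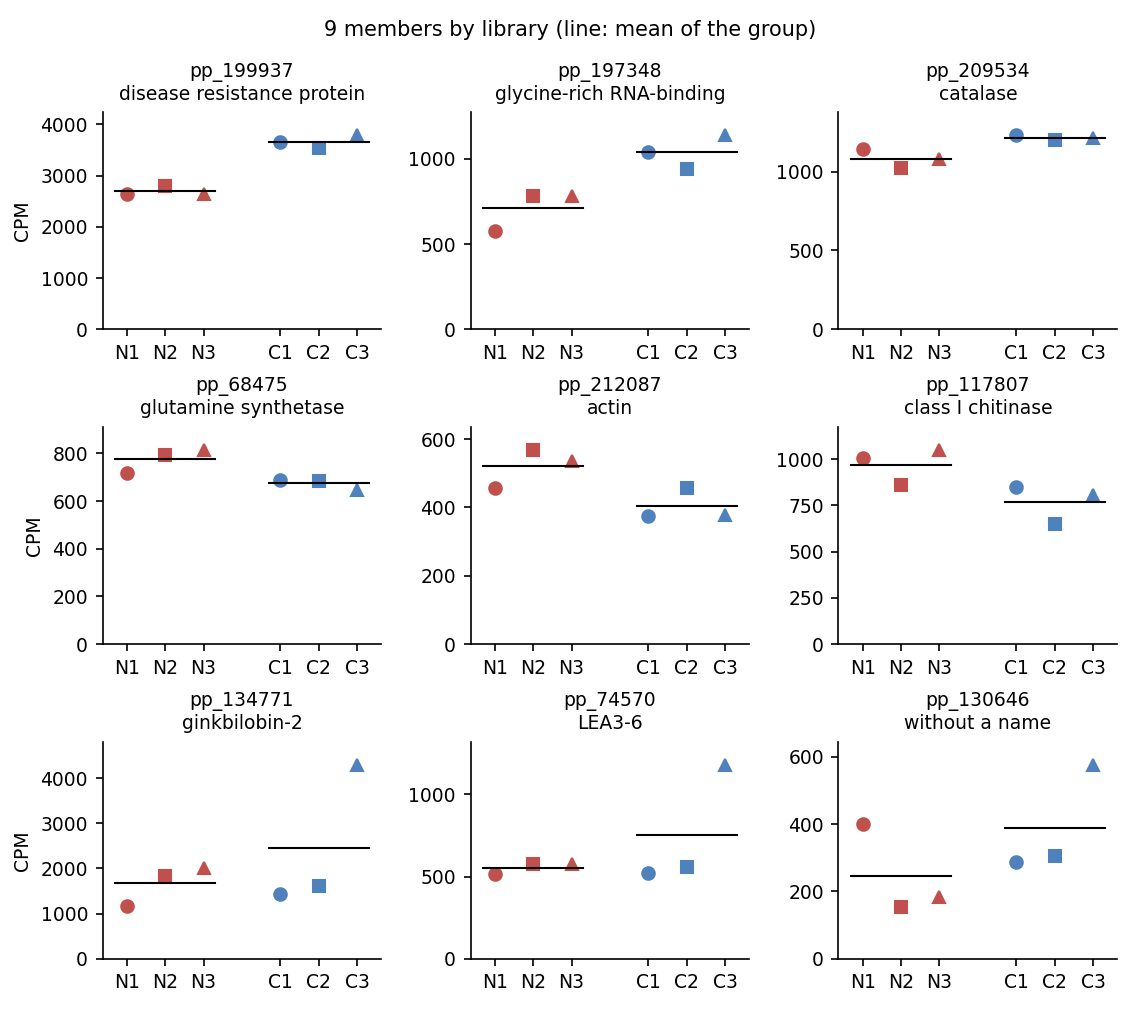
CPM by library (y axis, linear from 0) for 9 of the 187 transcripts, ammonium libraries N1 to N3 on the left and water libraries C1 to C3 on the right, with the mean of each group as a line. The disease resistance protein and catalase have replicates close together, and C3 lies far above the other libraries for ginkbilobin-2 form pp_134771 and for LEA3-6.

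Other secreted and defense proteins averaged lower in some forms and higher in others. Non-specific lipid transfer protein pp_108258, of a family that binds lipids in the cell wall and cuticle, had 1552, 1377 and 1359.7 CPM in ammonium and 1471, 1551 and 1246 CPM in water libraries. Its named copy pp_108259 and the unnamed pp_108260 and pp_108261 shared its reads, and the log2 fold change was 0.01 (SE 0.10). Defensin-1 (pp_79642), a small cysteine-rich antifungal peptide, had 781, 945 and 853 CPM in ammonium and 937, 965 and 979 CPM in water libraries and one of the smallest water spreads. Class I chitinase pp_117807, an enzyme that cuts the chitin of fungal walls, had 1004, 859 and 1048 CPM in ammonium against 852, 649.7 and 808 CPM in water libraries. It was above every water library in all 3 ammonium libraries (log2 fold change 0.34, SE 0.11, adjusted p = 0.423 in limma), while the other chitinase forms pp_225711 and pp_225714 averaged 559 and 559.8 CPM in ammonium and 552 and 552 CPM in water libraries. The 3 proline-rich proteins summed to 1583, 1413 and 1588 CPM in ammonium and 1594, 1654 and 2299 CPM in water libraries, without overlap and with C3 the highest. The 5 cupins, members of a family that includes seed storage proteins, summed to 3552, 2574 and 2806 CPM in ammonium and 3085, 3009 and 3241 CPM in water libraries, and N1 was the highest library. A cysteine proteinase inhibitor (pp_152827), which blocks papain-type proteases, had 410.1, 442 and 431 CPM in ammonium and 429, 408 and 416 CPM in water libraries, and the protease pp_210565 had 405, 399 and 396 CPM in ammonium and 414, 395 and 371 CPM in water libraries.

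The class of translation factors took in, by its name only, the translationally-controlled tumor protein (TCTP, pp_72505), a growth-linked protein found throughout plants and animals. TCTP had 1816, 1874 and 1680.1 CPM in N1, N2 and N3, against 1716, 1823 and 1945 CPM in C1, C2 and C3. Forms pp_72509, pp_72515 and the unnamed pp_72513 shared its reads, and the groups overlapped (log2 fold change -0.03, SE 0.09). The 3 forms of elongation factor 1-alpha formed 1 set with the same reads. The putative translation factor pp_173296, of the SUI1 family that helps choose the start codon, averaged 778 ± 55.4 CPM in ammonium and 814 ± 40.9 CPM in water libraries (SD, n = 3 each). The 3 named polyubiquitins, precursors of the tag that marks proteins for breakdown, summed to 1897, 1718 and 1750.3 CPM in ammonium and 1740.0, 1955 and 1906 CPM in water libraries. The summed level of the 7 transcripts classed as translation factors, including the 3 TCTP forms, had a ratio of means of 1.00. None of the 7, which formed 3 sets with the same reads, separated the groups.

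All 10 glycine-rich RNA-binding proteins averaged lower in ammonium (50.1% of all transcripts). These proteins bind RNA through a recognition motif and act in RNA processing and in the response to cold and the circadian clock in Arabidopsis. Form pp_211523, the highest, had 1035, 1128 and 1322 CPM in ammonium against 1549.8, 1398 and 1565 CPM in water libraries. Form pp_197348 had 575, 783 and 785 CPM in ammonium against 1043, 944 and 1138 CPM in water libraries, with N1 the lowest. Its log2 fold change was -0.55 (SE 0.12, adjusted p = 0.154 in limma), and edgeR's exact test called it and both forms that shared its reads, pp_197347 and pp_197350, with adjusted p of 0.0483, 0.0492 and 0.0442. All ammonium libraries lay below all water libraries for 8 of the 10 (6.94% of all transcripts), and the rule that chose them used the water libraries. Summed, the 10 had 6935, 7999 and 8986 CPM in N1, N2 and N3, against 10913, 9814 and 11167 CPM in C1, C2 and C3, a ratio of means of 0.750. The median log2 fold change was -0.40, and -0.36 under quantile normalization. By the rule for shared reads, the 10 IDs formed 8 sets. Forms in different sets may still have part of their reads in common, so the 8 sets need not be independent. How many reads they had in common was not tested.

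The 7 transcripts with a BURP domain, found in secreted plant proteins such as the drought-responsive RD22, were the only named ones in the class of cell wall and structural proteins. The 3 named proline-rich proteins had been sorted with the secreted and defense proteins. All 7 averaged lower in ammonium (50.1% of all transcripts), and for 5 of them every ammonium library was below every water library (6.94% of all transcripts). Form pp_79720 had 307, 466 and 491 CPM in ammonium against 617, 623 and 515 CPM in water libraries (log2 fold change -0.50, SE 0.15, adjusted p = 0.341 in limma). Form pp_79723 had 287, 414 and 420.2 CPM in ammonium against 531, 554 and 431 CPM in water libraries, with N3 and C3 close to each other. N1 was the lowest library for both. Summed, the 7 had 2587, 3277 and 3382 CPM in ammonium against 4523, 4189 and 3526 CPM in water libraries, a ratio of means of 0.756, and the median log2 fold change was -0.40 (-0.35 under quantile normalization).

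Stress-linked and hormone-linked transcripts, 8 in 4 sets with the same reads, all averaged lower in ammonium (50.1% of all transcripts). The 4 auxin-repressed forms, of which pp_245191 was the highest, were 1 set and summed to 2393, 2809.8 and 2681 CPM in ammonium and 2736, 2939.6 and 3211 CPM in water libraries, with overlap. The zinc finger A20 and AN1 forms pp_203256 and pp_203258, also 1 set, summed to 688, 721 and 744 CPM in ammonium against 895, 888 and 931 CPM in water libraries, without overlap (median log2 fold change -0.33). The remaining stress-linked transcripts were LEA3-6, whose lower mean rested on C3 as given above, and an aluminum-induced protein (pp_200922). The latter had 385, 416 and 377 CPM in ammonium and 428, 392 and 430.4 CPM in water libraries. Under quantile normalization 1 of the 8, pp_200922, turned higher.

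Among transcripts of detoxification, the summed metallothioneins and superoxide dismutases averaged close to each other in both groups, while catalase (above) was lower in every ammonium library. Metallothioneins are small cysteine-rich proteins that hold copper and zinc. Form pp_108997 had 969.9, 1111 and 1006 CPM in ammonium and 933, 1062 and 918 CPM in water libraries. The 6 named metallothioneins summed to 3817, 4481 and 4123 CPM in ammonium and 3632, 4279.9 and 4330.5 CPM in water libraries, a ratio of means of 1.01. Form pp_108993 was above every water library in the 3 ammonium libraries, with 671, 754 and 689.6 CPM in ammonium against 611, 659 and 665 CPM in water libraries. The unnamed pp_108998, in the same run of IDs, had one of the smallest water spreads (1.65%), with 720.2, 831 and 770.1 CPM in ammonium and 774, 794 and 799 CPM in water libraries. Unnamed pp_100366, close in ID to metallothionein pp_100364, was below every water library, with 710, 844 and 792 CPM in ammonium against 897, 1040 and 1055 CPM in water libraries. The 3 forms of superoxide dismutase, which turns superoxide into hydrogen peroxide, summed to 1820.0, 1803 and 1672 CPM in ammonium and 1688, 1593 and 1656 CPM in water libraries, with overlap.

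Water channels made up most of the transport class. The plasma membrane aquaporin pp_163612 had 1108, 1134 and 1087 CPM in ammonium and 1317, 1221 and 981 CPM in water libraries, with C3 the lowest and C1 the highest, and 3 unnamed IDs shared its reads. A second plasma membrane form, pp_120534, had 994, 916 and 931 CPM in ammonium and 968, 989 and 834 CPM in water libraries. The 7 named aquaporins of the plasma membrane and tonoplast summed to 6088, 5832 and 5843 CPM in ammonium and 6239.7, 6147 and 5301 CPM in water libraries, a ratio of means of 1.00. The 3 IDs pp_66248, pp_66253 and pp_66254 were described as replication protein A, but the Arabidopsis match of pp_66248 and pp_66253 was a mitochondrial ADP/ATP carrier, so the tables do not settle their function. They summed to 1427, 1352 and 1291 CPM in ammonium and 1343, 1289.6 and 1162 CPM in water libraries.

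In secondary metabolism, chalcone synthase (pp_134820), the first enzyme of flavonoid synthesis, had 1000.1, 868 and 1011 CPM in ammonium and 1239.8, 1172 and 937 CPM in water libraries. Its 3 forms summed to 2259, 1955 and 2241 CPM in ammonium and 2606, 2457 and 2026 CPM in water libraries, C1 and C2 being the highest and N2 the lowest. S-adenosylmethionine synthase pp_203935 makes the methyl donor that is also the precursor of ethylene and polyamines. It had 820.2, 930.0 and 974 CPM in ammonium against 1150.0, 1053 and 1096 CPM in water libraries, without overlap (log2 fold change -0.28, SE 0.09, adjusted p = 0.423 in limma). Under quantile normalization the fold change of pp_203935 was -0.07. S-adenosylmethionine decarboxylase, which feeds polyamine synthesis, summed over pp_152552 and pp_152554 to 1198, 1216 and 1369.7 CPM in ammonium and 1311, 1229 and 1202 CPM in water libraries. A transcript named BSU2 (pp_153045), with a methyltransferase as its Arabidopsis match, had 1014, 910.4 and 884 CPM in ammonium and 858, 959 and 922 CPM in water libraries, and pp_153039 of the same name had 1062, 963 and 931 CPM in ammonium and 917, 1002 and 984 CPM in water libraries. The sole transcript of central carbon metabolism with a name was a pyruvate decarboxylase family member (pp_199412), one of the 49 fermentation transcripts above, with 747, 969.9 and 892 CPM in ammonium and 949, 825 and 818 CPM in water libraries.

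Named transcripts of the cytoskeleton, except a tubulin, and of nitrogen assimilation averaged higher in ammonium. Actin form pp_212087, a subunit of the filaments that guide vesicles and organelles, had 455, 567 and 537 CPM in ammonium against 375, 458 and 379 CPM in water libraries. N1 lay just below C2, so the groups overlapped, and the log2 fold change was 0.36 (SE 0.11, adjusted p = 0.356 in limma), the highest of the 187. The more abundant forms pp_212078 and pp_212084, with the same reads, had a log2 fold change of 0.10 (SE 0.09) without overlap. The 4 actins summed to 2305, 2582 and 2521 CPM in ammonium and 2048, 2313 and 2086 CPM in water libraries, a ratio of means of 1.15. Actin depolymerizing factor 8 (pp_178073 and pp_178074, 1 set), which severs these filaments, summed to 1055, 1118 and 1065 CPM in ammonium against 959, 1011 and 983 CPM in water libraries, without overlap. Glutamine synthetase pp_68475 had 719, 793 and 814 CPM in ammonium against 689.7, 684 and 649 CPM in water libraries (log2 fold change 0.20, SE 0.09, adjusted p = 0.569 in limma). The 3 named forms and the unnamed pp_68480 and pp_68482 between them, 5 IDs in 3 sets, summed to 3402, 3832 and 3922 CPM in ammonium and 3317, 3287 and 3092 CPM in water libraries, a ratio of means of 1.15.

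ADP-ribosylation factors, small GTPases that start the budding of transport vesicles, averaged lower in ammonium. Form pp_132470 had 765, 622 and 645 CPM in ammonium against 835, 812 and 934 CPM in water libraries and form pp_73187 had 913, 860.5 and 852 CPM in ammonium against 1002, 981 and 1090.3 CPM in water libraries. Neither overlapped between groups, and the adjusted p in limma was 0.329 for pp_132470 and 0.499 for pp_73187. The log2 fold change of pp_132470 was -0.35, and -0.22 under quantile normalization, and that of pp_73187 was -0.23, and -0.05 under quantile normalization. The 1 receptor-like kinase of the set (pp_117765) had 402, 399.8 and 416 CPM in ammonium and 486, 443 and 385 CPM in water libraries, with overlap.

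**Figure D5:**
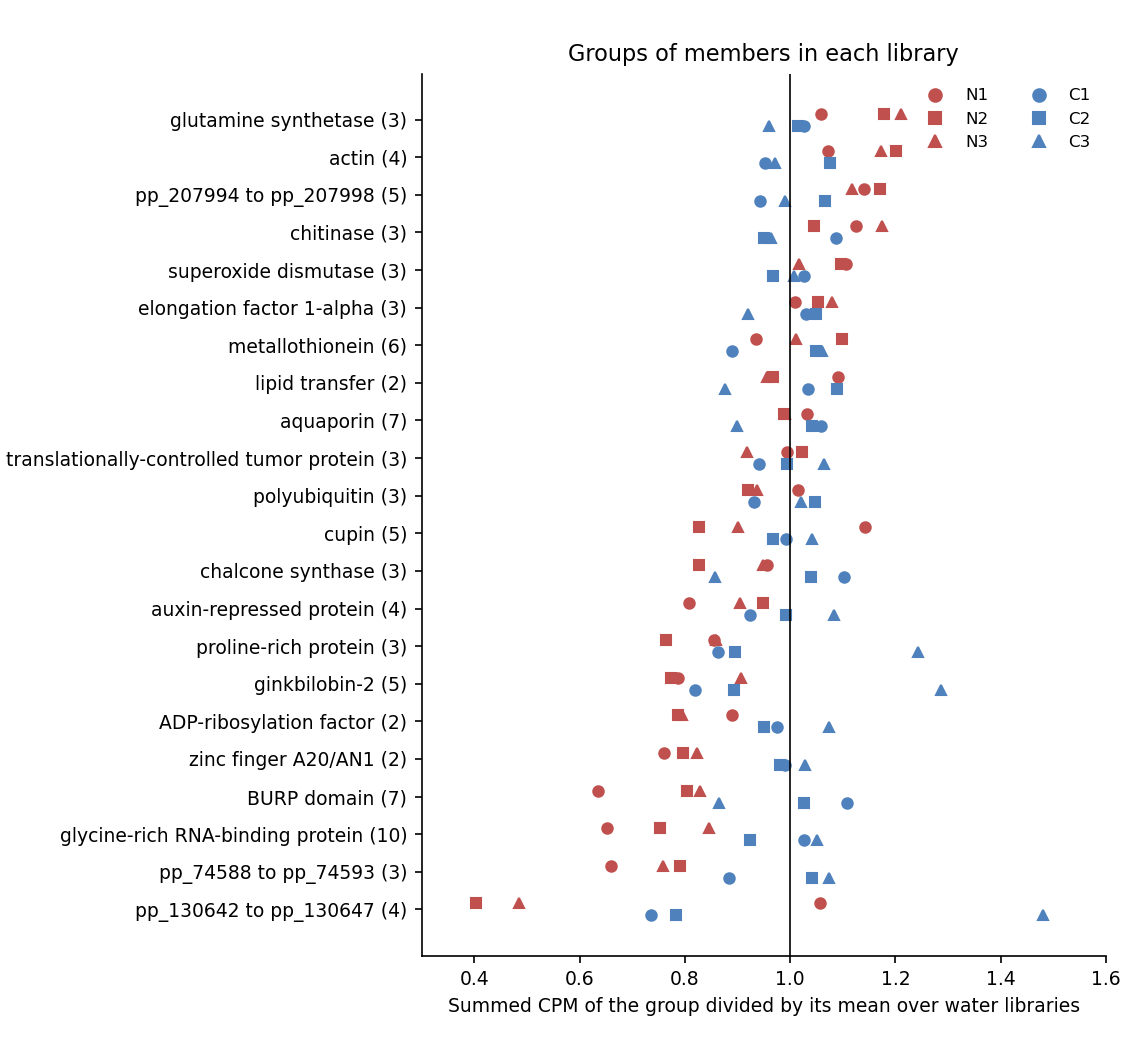
Summed CPM of 22 groups of transcripts in each library, divided by the mean of the group over water libraries (x axis, ratio), with the number of transcripts in brackets, ammonium points above water points in each row. Glutamine synthetase, pp_207994 to pp_207998 and the glycine-rich RNA-binding, BURP domain, zinc finger A20/AN1, ADP-ribosylation factor and proline-rich rows, and pp_74588 to pp_74593, show no overlap between groups; in the ginkbilobin-2 row C3 stands above the other libraries, and in the bottom row C3 and N1 do.

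Some of the largest fold changes belonged to transcripts without a name. The 4 forms pp_130642, pp_130644, pp_130646 and pp_130647 had the lowest log2 fold changes of the 187, from -0.72 to -0.66. Form pp_130646 had 401, 154 and 183 CPM in N1, N2 and N3, and 288, 304 and 576 CPM in C1, C2 and C3. N1 was above C1 and C2, and C3 was the highest library, so the groups overlapped and the standard error was 0.29 (adjusted p = 0.512 in limma). Without N1 the fold change of pp_130646 was -1.13 (adjusted p = 0.0573 in limma). Without C1 and N1 together, a setting chosen after seeing the data, it was -1.31 (adjusted p = 0.00438 in limma). All 4 forms, which made 2 sets with the same reads, were called in that fit (0.523% of all transcripts were called lower). A run of 5 unnamed IDs with the same reads, pp_207994 to pp_207998, was above every water library in each ammonium library, and pp_207996 had 647, 663 and 633 CPM in ammonium against 533, 605 and 562 CPM in water libraries. The unnamed pp_74588, pp_74590 and pp_74593 were below every water library, and pp_74593 had 619, 725 and 690.5 CPM in ammonium against 809, 955 and 981 CPM in water libraries (log2 fold change -0.43, SE 0.10, adjusted p = 0.201 in limma). Among the IDs from pp_58111 to pp_58121, pp_58117 had 718, 853 and 886 CPM in ammonium against 1042, 976 and 898 CPM in water libraries, with C1 the highest and a log2 fold change of -0.25 (-0.08 under quantile normalization). Unnamed pp_66319, at rank 7 in water, had 2085, 2689 and 2198 CPM in ammonium and 2235, 2664 and 2785 CPM in water libraries.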

How the data were processed

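Direct RNA libraries of roots, 3 of ammonium and 3 of water, were assigned to groups from the labels. Per the labels and the paper's methods, the authors mapped the reads with minimap2 to pine transcripts and deposited CPM values from edgeR (versions not given in the sources used here). Every transcript in the table had 2 CPM or more in 2 or more libraries. Every value was a whole multiple of the CPM of 1 read, within 1e-06 (100% of values), and reads were recovered from it. The counting program is not given, so 1 read may count for several forms. The paper states that the experiment was run 3 independent times, but nothing in the labels says that same-numbered libraries come from one run.

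The main test was limma 3.58.1 (R 4.3.3) on log2(CPM + 1), with eBayes and a trend, on all 6 libraries, with Benjamini-Hochberg adjustment over 46658 transcripts and a threshold of 0.05. Fold changes are on that scale, and standard errors are those moderated by eBayes. edgeR 4.0.16 and DESeq2 1.42.0 were run on the recovered reads as alternatives, beside the other settings given in the closing section. Scripts were tested on simulated data. The transcripts, classes and lists were chosen with earlier results of these data known. Named transcripts were the 20 highest in water, the 2 highest of each class, the 5 largest fold changes in each direction (also among named ones), those called by any tool, those with primers in the study, the 5 on each side of the rank limit, and the 5 largest and smallest water spreads, with the forms that share their reads or run of IDs. Other family members were named after their values were seen. Names come from the supplementary tables, with no values taken from them. All sample columns of the table were used.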

Additional observations from a re-analysis of the deposited data

How the results depend on the processing

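In limma 0 of the 187 transcripts were called, and this held under pseudocounts of 0.25 and 4 CPM, the filter of at least 10 CPM in 3 libraries, quantile normalization, eBayes with no trend, and every fit without 1 library. TMM factors computed on the recovered reads also gave 0. They hardly moved the fits (median log2 fold change -0.05664 against -0.05663), so the values may already carry such factors and this setting adds little. The count was 1 in edgeR's quasi-likelihood test, 4 in its exact test, 1 in DESeq2, and 5 without C1 and N1 together, a setting chosen after seeing the data. Of all transcripts limma called 18, against 114 in edgeR's quasi-likelihood test, 379 in its exact test, 83 in DESeq2, 0 without a trend, 0 (without C2) to 71 (without N1) in fits without 1 library, with 29 without C1 and 5 without N2 or N3, and 352 without C1 and N1. The replicate number as a block called 49 of all transcripts and 0 of the 187; deviations of same-numbered libraries correlated by -0.02, 0.09 and -0.04, so same-numbered libraries were not treated as pairs. The cause of these differences was not tested.

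The median log2 fold change of the 187 (-0.0566) ran from -0.0622 (without C3) to -0.0323 (without C2) in fits without 1 library, and was 0.0497 under quantile normalization, -0.0308 with transcripts chosen by the ammonium mean, -0.0323 with those chosen by the mean of 6 libraries and -0.0787 over the first 100 ranks. The share of summed CPM averaged 9.93% in ammonium and 10.7% in water over the first 100 ranks, 21.0% in ammonium and 22.1% in water over the first 400, and 10.4% in ammonium and 11.2% in water with 1 transcript of each same-reads set. Choosing the transcripts without 1 water library left it within the replicate spread. All ammonium libraries lay above all water libraries for 4 of 90 transcripts in the first 100 ranks and 22 of 383 in the first 400 (7.16% of all transcripts), and below for 20 of 90 and 63 of 383 (6.94% of all transcripts). Catalase (pp_209534) had a log2 fold change of 0.0027 under quantile normalization. That setting works by rank, so its sign changes cannot decide the direction of a shift that the top ranks share. Of 187 transcripts, 34 changed sign under quantile normalization, 14 to 38 in fits without 1 library and 28 without C1 and N1, but of the 50 whose groups did not overlap only catalase did so, under quantile normalization.

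With 3 libraries a group, the standard error of a typical abundant transcript was 0.10 on the log2 scale. Fold changes of -0.55 (SE 0.12, pp_197348) and, with wider replicate spread, -0.72 (pp_130646) were not called in limma. Counting error was small at this depth.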
